A study of Mus musculus with 50 samples.

Results

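The comparison described here asked whether the left ventricle of Tgαq*44 mice changed between 12 and 14 months of age in a way that age-matched FVB mice did not. It was the change from 12 to 14 months in Tgαq*44 mice minus the change over the same ages in FVB mice, computed for each gene. The members were the 20 libraries of 4 groups of 5 female mice, chosen by the title of each library, out of 50 libraries of the series. The groups were FVB mice (wild-type) aged 12 months, FVB mice aged 14 months, Tgαq*44 mice aged 12 months and Tgαq*44 mice aged 14 months. Tgαq*44 mice are on the FVB background and overexpress a constitutively active Gαq protein in cardiomyocytes, with heart failure given as their disease. No treatment was given to any group and all mice ate a standard chow diet. Poly(A)-selected RNA of the apex of the left ventricle was sequenced, so every value is a level in whole tissue, in which fewer cells of a type and less RNA per cell cannot be told apart. Each mouse was sampled at a single age, so a change with age is a difference between different mice, and the Tgαq*44 mice of 14 months are those that were alive at that age.

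Gαq is the subunit through which receptors for angiotensin II, endothelin and alpha-adrenergic agonists activate phospholipase C-beta, with calcium release and protein kinase C activity downstream. Sustained Gαq signalling in cardiomyocytes is known to drive hypertrophy and later dilation and failure of the heart. Failing ventricle is known for re-expression of foetal genes, deposition of interstitial matrix by fibroblasts, and loss of transcripts for oxidative metabolism and calcium handling.

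The 20 libraries held between 8772914 and 21601942 counts, and no library was a copy of another. Of 54532 genes in the matrix, 15129 passed the filter on low counts. All 12 ventricular cardiomyocyte markers were tested and Myh6, the alpha myosin heavy chain, was at a mean of 5766 to 13216 CPM (counts scaled to a common library size, with the trimmed mean of M-values) in the 4 groups, while none of 3 lung epithelium markers passed the filter. Mitochondrially encoded genes took 22.5% ± 2.04 (SD, n = 5) of counts in FVB mice of 12 months, 22.6% ± 2.37 in FVB mice of 14 months, 14.3% ± 0.964 in Tgαq*44 mice of 12 months and 17.3% ± 1.16 in Tgαq*44 mice of 14 months. Gnaq, the gene whose protein is overexpressed, was at 21.7 ± 5.50 CPM (SD, n = 5) and 16.0 ± 3.94 CPM in FVB mice of 12 and 14 months, and at 32.0 ± 4.99 CPM and 41.4 ± 9.49 CPM in Tgαq*44 mice of 12 and 14 months. Tgαq*44 mice exceeded FVB mice in Gnaq at both ages (log2 difference 0.56, adjusted p = 0.012 at 12 months and 1.37, adjusted p = 5e-08 at 14 months), and the count does not separate the transgene from the endogenous gene. Its strain difference in change was 0.82 ± 0.26 (SE) with an adjusted p of 0.097, which did not pass 0.05, against 1.01 (adjusted p = 0.013) without the 2 libraries that stood apart, described below, and 0.42 (adjusted p = 0.63) in the fit with coding-length slope as a covariate.

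The change from 12 to 14 months differed between strains for 193 of 15129 genes at an adjusted p under 0.05 (Benjamini-Hochberg over all genes tested). The difference was positive, that is, the change was more upward in Tgαq*44 mice, for 131 genes (0.866% of genes tested), and negative for 62 genes (0.410%). With a minimum size of 1 on the log2 scale, 55 genes (0.364%) were positive and 25 (0.165%) negative DEGs. A first group of positive genes is led by Hs3st5, Ces1d, Lrtm1 and Itgb6, which rose in Tgαq*44 mice from a low level at 12 months. A second group is led by Nt5c1a, Hipk2 and Myh7b, for which FVB mice differed between ages. The negative genes were led by Cxcr6, Ctgf and Ccl6.

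The count of 193 rested on single libraries. It was 569 without FVB 12-month mouse 5 and 395 without Tgαq*44 14-month mouse 2. It was 95, 102, 83 and 118 without FVB 12-month mice 1, 2, 3 and 4 in turn, 90 and 98 without FVB 14-month mice 2 and 5, and 101 and 102 without Tgαq*44 14-month mice 3 and 4. Of the 193 genes, 58 were called in each of the 20 fits that left out a mouse, 47 of them positive and 11 negative. Fitted on the 20 libraries alone, the comparison called 50 genes. Of the genes named below, Amotl2, Carmn, Ccl9, Frzb, Fzd1, Fzd4, Fzd7 and Hipk2 lost their call in that fit. So did Kcna1, Kcnj15, Kcnj5, Lox, Mylk4, Ppara, Rpl3l and Sfrp2 (adjusted p = 0.059 to 0.11 over all these genes). By limma-voom, Carmn, Ccl9, Ddit4, Fzd7, Nt5c1a, Ppara, Sfrp2 and Timp1 lost it (adjusted p = 0.056 to 0.08).

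**Figure D1:**
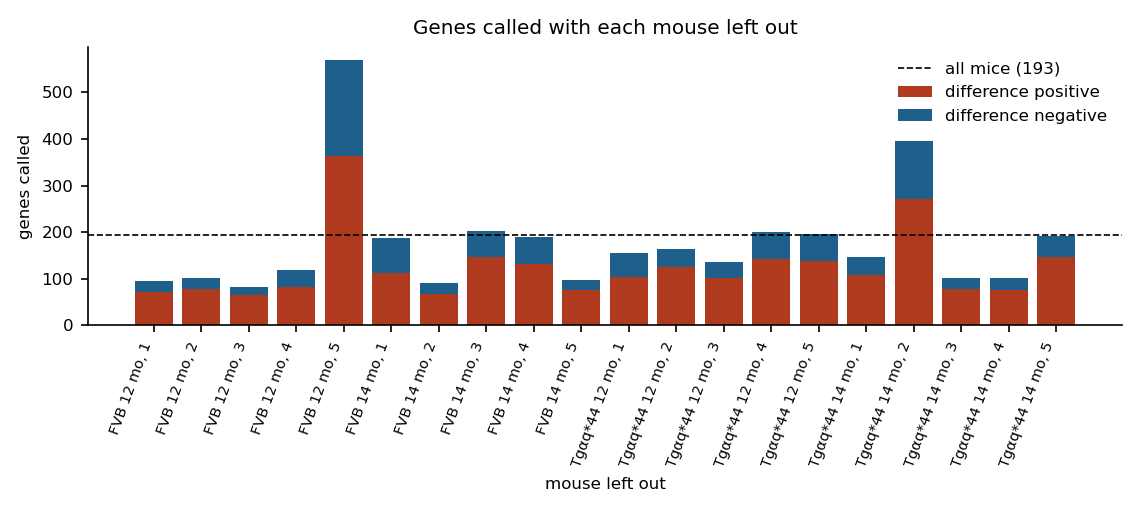
Number of genes called for the strain difference in change (vertical axis) with each of the 20 mice left out (horizontal axis), split into positive and negative differences, and the count with all mice as a dashed line at 193. The bar without FVB 12-month mouse 5 reached 569 genes and the bar without FVB 12-month mouse 3 reached 83.

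Libraries also differed in how much of their count came from long genes. For each library, the deviation of log2 CPM from the mean of all 50 libraries was regressed on coding length over 8412 protein-coding genes, and the slope was expressed per SD of log2 length. In FVB mice of 12 months the slope was 0.046, 0.035, 0.039 and 0.031 in mice 1 to 4 and -0.037 in mouse 5. In FVB mice of 14 months it was -0.055, -0.066, -0.018, -0.027 and -0.089 in mice 1 to 5, below 0 in every library. In Tgαq*44 mice it lay between 0.025 and 0.065 at 12 months, and at 14 months it was 0.036, -0.030, 0.049, 0.047 and 0.015 in mice 1 to 5. FVB 12-month mouse 5 and Tgαq*44 14-month mouse 2 were therefore the lowest of their groups, each the only library of its group below 0. These are named here as the 2 libraries that stood apart. By Dixon's test, described below, only FVB 12-month mouse 5 lay far from its group in slope. The other 4 FVB mice of 12 months were above all FVB mice of 14 months, while mouse 5 lay within their range. The 2 ages of Tgαq*44 mice overlapped.

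The calls followed the same measure. Positive differences made up 1.86% of the 3765 protein-coding genes in the longest tertile by coding length, 0.744% of the middle tertile and 0.239% of the shortest tertile, whereas negative differences made up 0.292%, 0.531% and 0.558%. The median coding length was 2877 bases over the 107 positive protein-coding genes, 1239 bases over the 52 negative ones and 1386 bases over all tested ones. With the slope of each library as a covariate, a fit chosen after seeing the data, the count fell from 193 to 23 genes, of which 14 were positive and 9 negative. In that fit the FVB change alone went from 1362 genes to 16, while the Tgαq*44 change alone went from 493 to 530. With both libraries that stood apart left out, also chosen after seeing the data, 837 genes were called. The sequencing run of each library is not given in the sources used here, and the slope and the age of FVB mice cannot be told apart with these libraries, apart from FVB 12-month mouse 5. The covariate fit's adjusted p is given below beside each called difference that is named, and its log2 difference where it changed the call.

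**Figure D2:**
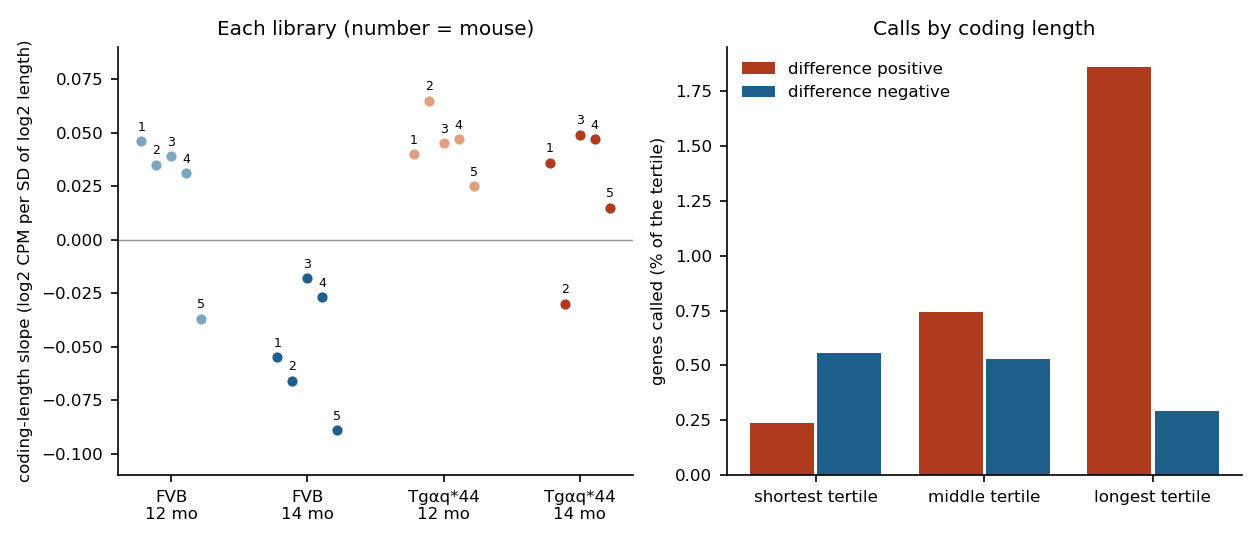
Left, coding-length slope of each of the 20 libraries (log2 CPM per SD of log2 coding length), numbered by mouse. Right, percentage of protein-coding genes called for a positive or a negative strain difference in change in each tertile of coding length, reaching 1.86% for positive differences in the longest tertile.

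Split by strain, the change from 12 to 14 months passed the test for 212 genes upward (1.40% of genes tested) and 281 downward (1.86%) in Tgαq*44 mice, and for 464 upward (3.07%) and 898 downward (5.94%) in FVB mice. With upper-quartile scaling the split in Tgαq*44 mice turned to 275 upward and 218 downward. Without Tgαq*44 14-month mouse 5 the Tgαq*44 count of 493 was 186. Among the 131 positive genes, the median change was 0.16 on the log2 scale in Tgαq*44 mice and -0.64 in FVB mice, and in 96 of them the change of FVB mice was the larger in size. Among the 62 negative genes, the median change was -0.46 in Tgαq*44 mice and 0.44 in FVB mice, and in 31 of them the change of FVB mice was the larger. Over all genes tested the medians were -0.00 and 0.02. The covariate fit called 10 of the 35 positive genes with the larger change in Tgαq*44 mice and 4 of the 96 with the larger change in FVB mice. It called 7 of the 31 negative genes with the larger change in Tgαq*44 mice and 1 of the other 31.

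**Figure D3:**
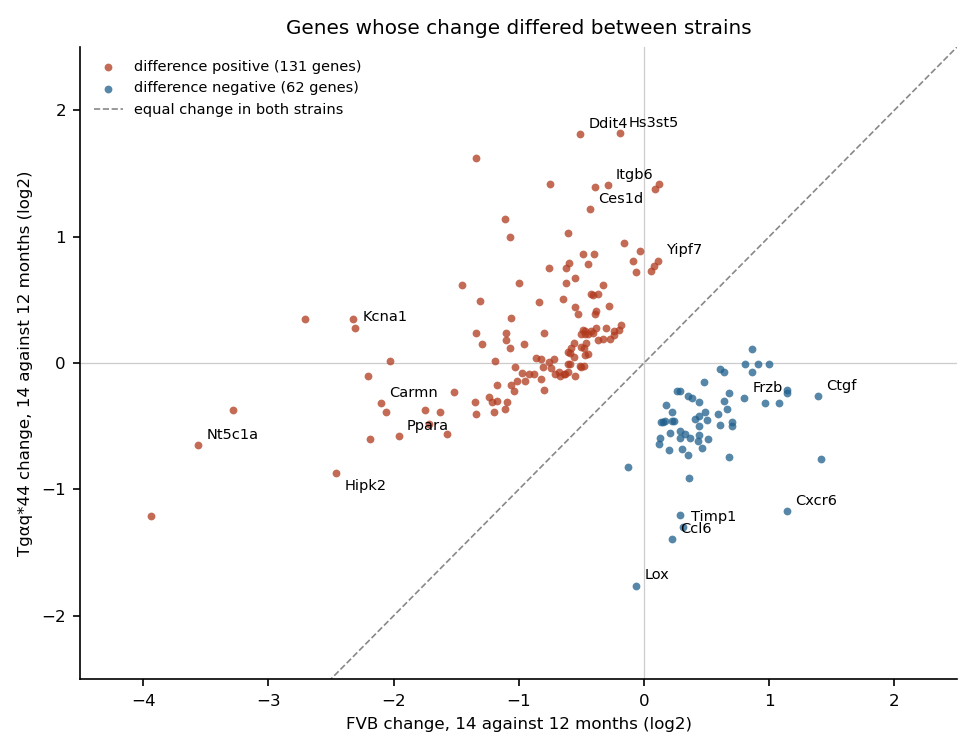
Log2 change from 12 to 14 months in FVB mice (horizontal axis) and in Tgαq*44 mice (vertical axis) for the 193 called genes, with a dashed line where both changes are equal. The 131 positive genes lie above the line and the 62 negative genes below it, and Hs3st5 (change in Tgαq*44 mice 1.82) and Nt5c1a (change in FVB mice -3.56) mark the 2 patterns.

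Hs3st5, which encodes a heparan sulfate 3-O-sulfotransferase (chromosome 10, 36506814 to 36834397, + strand, GRCm38), had the lowest adjusted p among the named genes of the first group. It was at 4.52, 3.86, 4.49, 3.34 and 2.66 CPM in FVB mice of 12 months and at 3.33, 2.63, 3.18, 4.18 and 3.29 CPM in FVB mice of 14 months. It was at 0.529, 0.325, 1.04, 1.03 and 1.22 CPM in Tgαq*44 mice of 12 months and at 3.50, 2.47, 3.76, 2.52 and 2.23 CPM in those of 14 months. The Tgαq*44 mice of 12 months were the low group and did not overlap any other group, while the 2 FVB groups overlapped. The difference in change was 2.01 ± 0.30 (SE, adjusted p = 0.00012, and 0.003 in the covariate fit), with a change of 1.82 in Tgαq*44 mice (adjusted p = 1.5e-06) and of -0.19 in FVB mice (adjusted p = 0.62). The 2 strains differed at 12 months by -2.20 (adjusted p = 1.9e-11) and at 14 months by -0.19 (adjusted p = 0.47).

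The sequences of the 2 named positive genes of lowest adjusted p, Hs3st5 for the first pattern and Myh7b for the second, are shown for the 250 bases before the start of transcription in RefSeq (GRCm38.p6), as context for a change in transcript level. The motif CATTCC, bound by TEAD factors in muscle promoters, and the E-box CACGTG were searched on both strands, and matches are in capitals. CATTCC was present in 12.6% of 32851 such windows and CACGTG in 6.02%. The windows are chr10:36506557-36506806 and chr2:155610993-155611242, both on the + strand.
Hs3st5: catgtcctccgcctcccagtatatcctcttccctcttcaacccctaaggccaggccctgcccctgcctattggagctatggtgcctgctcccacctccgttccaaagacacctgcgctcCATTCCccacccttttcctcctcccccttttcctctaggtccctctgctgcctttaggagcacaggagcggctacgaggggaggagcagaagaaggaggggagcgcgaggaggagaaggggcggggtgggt
Myh7b: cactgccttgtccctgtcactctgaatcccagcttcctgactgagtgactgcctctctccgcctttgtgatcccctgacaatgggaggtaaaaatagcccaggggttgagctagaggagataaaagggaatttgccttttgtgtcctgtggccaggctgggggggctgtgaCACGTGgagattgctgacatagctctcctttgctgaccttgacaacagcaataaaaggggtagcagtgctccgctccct
The Hs3st5 window held CATTCC beginning 131 bases before the start, and the Myh7b window held CACGTG beginning 79 bases before it. A match describes these letters only.

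Ces1d, a carboxylesterase that hydrolyses triglyceride, was at 85.0, 88.7, 81.3, 71.4 and 59.9 CPM in FVB mice of 12 months and at 56.6, 59.5, 54.7, 58.4 and 57.2 CPM in FVB mice of 14 months. In Tgαq*44 mice it was at 6.11, 3.12, 6.78, 7.23 and 8.02 CPM at 12 months and at 13.9, 13.3, 16.6, 14.9 and 14.2 CPM at 14 months. Every Tgαq*44 mouse of 14 months was above every Tgαq*44 mouse of 12 months and below every FVB mouse. The difference in change was 1.66 ± 0.30 (SE, adjusted p = 0.0017, and 0.017 in the covariate fit), with a rise of 1.22 in Tgαq*44 mice (adjusted p = 0.00071).

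Lrtm1, a leucine-rich repeat membrane protein gene, was at 733, 659, 916, 544 and 567 CPM in FVB mice of 12 months and at 555, 517, 517, 445 and 410 CPM in those of 14 months. It was at 111, 81.1, 127, 125 and 73.0 CPM in Tgαq*44 mice of 12 months and at 156, 161, 186, 207 and 230 CPM in those of 14 months. The 2 Tgαq*44 groups did not overlap, and the 2 FVB groups did. The difference in change was 1.35 ± 0.24 (SE, adjusted p = 0.0017, and 0.026 in the covariate fit), and the rise in Tgαq*44 mice was 0.86 (adjusted p = 0.0019).

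Itgb6, the integrin beta-6 subunit of a receptor that activates latent TGF-beta, was at 34.5, 23.7, 29.9, 15.8 and 16.3 CPM in FVB mice of 12 months and at 23.4, 20.2, 24.7, 18.6 and 11.4 CPM in those of 14 months. Levels in Tgαq*44 mice were at 1.88, 3.18, 3.51, 3.30 and 3.70 CPM at 12 months and at 10.9, 10.1, 7.26, 6.95 and 6.07 CPM at 14 months, without overlap. The difference in change was 1.71 ± 0.35 (SE, adjusted p = 0.0059, and 1.46 with an adjusted p of 0.08 in the covariate fit), with a rise of 1.41 in Tgαq*44 mice (adjusted p = 0.00095).

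Lrrc52, which encodes an auxiliary subunit of BK-type potassium channels, was low throughout, at a mean of 2.38 and 1.12 CPM in FVB mice of 12 and 14 months and 0.209 and 0.428 CPM in Tgαq*44 mice. Its difference in change was 2.07 ± 0.46 (SE, adjusted p = 0.013, and 2.11 with an adjusted p of 0.052 in the covariate fit), and it was FVB mice in which the change of -1.07 passed the test (adjusted p = 0.0024, and 0.13 in the covariate fit), while the 1.00 of Tgαq*44 mice did not (adjusted p = 0.17).

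Other positive genes with a change in Tgαq*44 mice were chosen after their values were seen. Yipf7 rose by 0.81 on the log2 scale in Tgαq*44 mice (adjusted p = 1.5e-06) against 0.11 in FVB mice, with a difference of 0.70 ± 0.14 (SE, adjusted p = 0.0045). Rpl3l, the striated-muscle paralog of the ribosomal protein gene Rpl3, rose by 0.73 in Tgαq*44 mice (adjusted p = 3.6e-05) against 0.06 in FVB mice, with a difference of 0.67 ± 0.15 (SE, adjusted p = 0.017). Armc2 rose by 0.89 in Tgαq*44 mice against -0.03 in FVB mice, with a difference of 0.92 ± 0.16 (SE, adjusted p = 0.0014). Asb18, which encodes an ankyrin repeat and SOCS box protein, and Lpin1, the phosphatidate phosphatase lipin 1, had differences of 0.92 and 0.73. All 5 passed in the covariate fit, with adjusted p-values of 0.011, 0.00089, 0.013, 0.009 and 0.013 in the order named, and Rpl3l did not pass in the fit on the 20 libraries alone (adjusted p = 0.072). Mylk4, a myosin light chain kinase of striated muscle, had a difference of 1.39 ± 0.32 (SE, adjusted p = 0.018), which did not pass in the covariate fit (1.00, adjusted p = 0.25) or without FVB 12-month mouse 3 (adjusted p = 0.054). At 12 months all 6 were lower in Tgαq*44 than in FVB mice, by log2 differences of -1.43 for Yipf7, -1.87 for Rpl3l, -1.92 for Armc2, -0.57 for Asb18, -0.83 for Lpin1 and -3.04 for Mylk4.

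**Figure D4:**
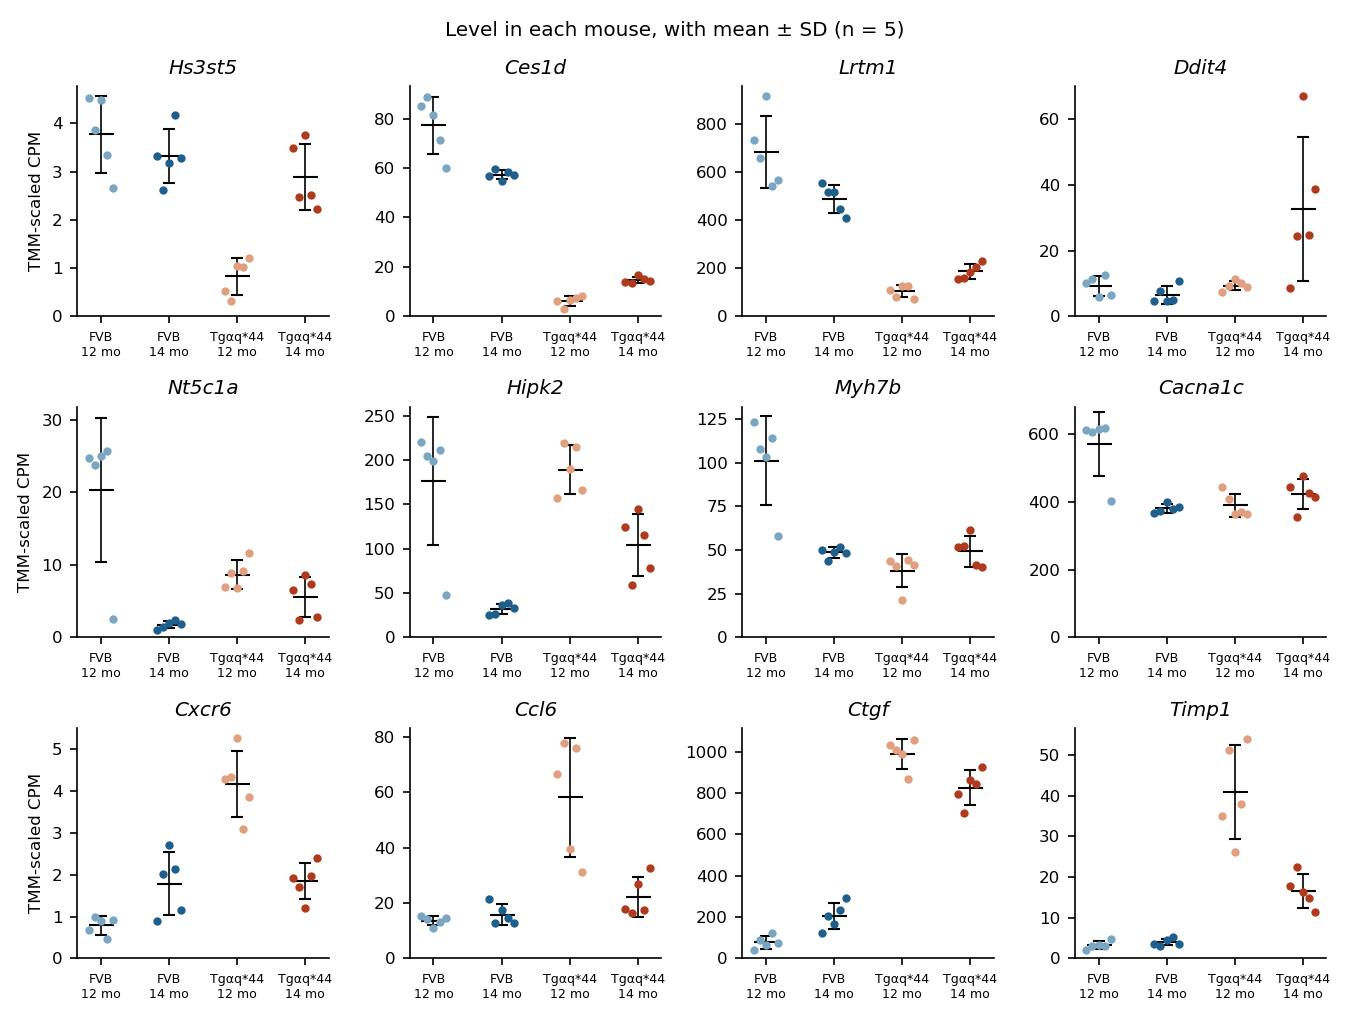
Level of 12 genes in each mouse of the 4 groups (TMM-scaled CPM, linear axes from 0), with the mean as a bar and the SD of 5 mice as whiskers. Hs3st5, Ces1d and Lrtm1 were lowest in Tgαq*44 mice of 12 months, and Nt5c1a, Hipk2 and Cacna1c of FVB 12-month mouse 5 lay near FVB mice of 14 months.

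The second group of positive genes differed between ages in FVB mice. Nt5c1a, the cytosolic 5′-nucleotidase that makes adenosine from AMP, was at 24.7, 23.8, 25.0, 25.7 and 2.57 CPM in FVB mice of 12 months and at 1.06, 1.49, 2.04, 2.36 and 1.84 CPM in those of 14 months. In Tgαq*44 mice it was at 6.94, 8.83, 6.86, 9.09 and 11.6 CPM at 12 months and at 6.56, 2.35, 8.60, 7.32 and 2.86 CPM at 14 months. FVB 12-month mouse 5 was at the level of the 14-month mice of its strain. The difference in change was 2.91 ± 0.55 (SE, adjusted p = 0.0028). It was 1.56 in the covariate fit (adjusted p = 0.25) and 2.46 by limma-voom (adjusted p = 0.056). The log2 change of FVB mice was -3.56 (adjusted p = 5.3e-08), against -1.98 in the covariate fit (adjusted p = 0.041).

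Hipk2, a nuclear kinase that phosphorylates p53, was at 220, 205, 199, 211 and 48.2 CPM in FVB mice of 12 months and at 25.6, 26.3, 36.2, 38.9 and 33.6 CPM in those of 14 months. Levels in Tgαq*44 mice were at 157, 219, 190, 215 and 166 CPM at 12 months and at 124, 58.8, 145, 115 and 77.7 CPM at 14 months. The low library among FVB 12-month mice was mouse 5 and the lowest among Tgαq*44 14-month mice was mouse 2, the 2 libraries that stood apart in coding-length slope. Hipk2 fell in both strains, by 2.46 in FVB mice (adjusted p = 2.8e-10) and by 0.87 in Tgαq*44 mice (adjusted p = 0.018), and in the covariate fit by 1.42 and 0.66 (adjusted p = 0.00018 and 0.01). The difference was 1.60 ± 0.31 (SE, adjusted p = 0.0043). It was 0.76 in the covariate fit (adjusted p = 0.25), and on the 20 libraries alone its adjusted p was 0.068.

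Carmn, a long non-coding RNA known from smooth muscle and cardiac progenitors, was at 8.86, 6.79, 7.10, 7.27 and 1.16 CPM in FVB mice of 12 months and at a mean of 1.47 CPM in those of 14 months. Its difference in change was 1.77 ± 0.37 (SE, adjusted p = 0.0063, and 0.99 with an adjusted p of 0.27 in the covariate fit). Kcnj15, an inward rectifier potassium channel gene, and Kcna1, a voltage-gated potassium channel gene of the Schwann cell list, had differences of 1.58 and 2.60 with adjusted p-values of 0.011 and 0.017. Both were low, at a mean of no more than 1.74 CPM for Kcnj15 and 1.07 CPM for Kcna1 in any group, and neither passed in the covariate fit (1.42 and 1.92, adjusted p = 0.12 and 0.25). For Kcnj15 the 2 FVB groups did not overlap, and FVB 12-month mouse 5, at 1.66 CPM, was among the other mice of its group.

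Myh7b, a myosin heavy chain gene of the cardiac and slow muscle family, was at 123, 108, 103, 114 and 57.8 CPM in FVB mice of 12 months and at 50.0, 43.8, 49.0, 51.7 and 48.4 CPM in those of 14 months. In Tgαq*44 mice it was at 43.4, 40.8, 21.1, 44.2 and 41.5 CPM at 12 months and at 51.4, 52.0, 61.5, 41.1 and 40.0 CPM at 14 months. FVB mice of 12 months were the high group, with mouse 5 nearest to the other groups. The difference was 1.42 ± 0.22 (SE, adjusted p = 0.00033, and 0.011 in the covariate fit), with a fall of FVB mice by 1.06 (adjusted p = 6.8e-06, and -0.74 with an adjusted p of 0.093 in the covariate fit) and a change of 0.36 in Tgαq*44 mice (adjusted p = 0.21). Myh7b carries the microRNA miR-499 in an intron, and the sequence of its mature 5p arm in RefSeq is shown with the seed, bases 2 to 8, in capitals because this microRNA is known as a muscle product of the same transcript. Its level was not measured by these poly(A)-selected libraries.
mmu-miR-499-5p: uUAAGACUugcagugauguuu

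Lrrc15, a leucine-rich repeat membrane protein gene, was at 49.7, 46.8, 56.5, 39.5 and 28.1 CPM in FVB mice of 12 months and at 24.3, 14.2, 22.2, 17.7 and 12.1 CPM in those of 14 months, without overlap. It was at 11.4 to 14.9 CPM in Tgαq*44 mice of 12 months and at 11.0 to 17.1 CPM in those of 14 months. The difference was 1.44 ± 0.26 (SE, adjusted p = 0.0017, and 0.048 in the covariate fit).

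Of genes for calcium handling and ion channels, Cacna1c, the pore-forming subunit of the cardiac L-type calcium channel, was the called member of 17 calcium genes tested. It was at 612, 606, 615, 618 and 402 CPM in FVB mice of 12 months, at 366 to 400 CPM in those of 14 months, at 363 to 443 CPM in Tgαq*44 mice of 12 months and at 356 to 478 CPM in those of 14 months. Its difference was 0.70 ± 0.14 (SE, adjusted p = 0.0059, and 0.41 with an adjusted p of 0.17 in the covariate fit). Kcnj5, a subunit of the acetylcholine-activated potassium channel, was the called member of 24 channel genes, with a difference of 0.67 ± 0.18 (SE, adjusted p = 0.039, and 0.40 with an adjusted p of 0.42 in the covariate fit), a call lost in 10 of the 20 fits that left out a mouse (adjusted p up to 0.10). Ppara, the nuclear receptor that activates fatty acid oxidation genes, was the called member of 14 genes of its axis, at 53.2, 42.1, 43.6, 53.4 and 14.7 CPM in FVB mice of 12 months and at 7.26 to 14.7 CPM in those of 14 months. Its difference was 1.38 ± 0.35 (SE, adjusted p = 0.033, and 0.51 with an adjusted p of 0.53 in the covariate fit), and the other 13 members of the list did not pass. The Ppara call was lost in 9 of the 20 fits that left out a mouse, with adjusted p up to 0.087. Positive calls made up 0.866% of all genes tested, the share to set beside these single called members. None of 26 fatty acid uptake and oxidation genes, 14 tricarboxylic acid cycle genes, 77 nuclear-encoded oxidative phosphorylation genes or 10 mitochondrially encoded messenger RNAs tested passed. Their median differences were 0.17, 0.14, 0.09 and 0.26 on the log2 scale, against -0.00 over all genes. Atp5b, an ATP synthase subunit, had 0.06 ± 0.12 (SE, adjusted p = 0.90) and mt-Nd1, a complex I subunit, had 0.63 ± 0.19 (SE, adjusted p = 0.086).

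Ddit4, an inhibitor of mTORC1 that responds to glucocorticoids and other stress, was the called member of 18 glucocorticoid-responsive genes. It was at 10.3, 11.4, 5.80, 12.7 and 6.56 CPM in FVB mice of 12 months and at 4.67, 7.79, 4.62, 4.83 and 10.7 CPM in those of 14 months. Levels in Tgαq*44 mice were at 7.47, 9.09, 11.3, 10.0 and 8.79 CPM at 12 months and at 8.54, 24.6, 67.0, 24.8 and 38.9 CPM at 14 months. Of the Tgαq*44 mice of 14 months, 4 were above every other mouse, and mouse 1 lay within the 12-month range. The difference was 2.33 ± 0.52 (SE, adjusted p = 0.016), and without Tgαq*44 14-month mouse 3 the adjusted p was 0.056. In the covariate fit the difference was 2.44 (adjusted p = 0.08). The list had a median difference of 0.68, with 16 of 18 genes positive. Positive calls for the difference made up 0.866% of all genes tested. The median change of the list was 0.64 in Tgαq*44 mice, in which 4 genes rose, and -0.31 in FVB mice, in which 1 fell. Of all genes tested, 1.40% rose in Tgαq*44 mice and 5.94% fell in FVB mice. Without Tgαq*44 14-month mouse 5 the list median in Tgαq*44 mice was 0.40 with 3 genes, while the count over all genes went from 493 to 186. In the covariate fit the list median in FVB mice was 0.03 with none, while 15 of all genes tested fell. The 4 list genes that rose in Tgαq*44 mice were Ddit4 (1.81, adjusted p = 0.0021), Errfi1 (1.43, adjusted p = 0.0012), Tsc22d3 (0.98, adjusted p = 0.0042) and Sgk1 (0.70, adjusted p = 0.042).

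Among the negative genes were chemokines and a chemokine receptor. Cxcr6, the receptor for CXCL16 on T and NKT cells, was at 0.672, 1.00, 0.898, 0.458 and 0.913 CPM in FVB mice of 12 months and at 0.889, 2.01, 2.72, 2.14 and 1.16 CPM in those of 14 months. In Tgαq*44 mice it was at 4.29, 4.35, 5.27, 3.10 and 3.87 CPM at 12 months and at 1.92, 1.71, 1.21, 1.97 and 2.40 CPM at 14 months. Tgαq*44 mice of 12 months were the high group and overlapped no other. The difference was -2.32 ± 0.41 (SE, adjusted p = 0.0017, and 0.0042 in the covariate fit), made up of a fall by 1.17 in Tgαq*44 mice (adjusted p = 0.0051) and a rise of 1.14 in FVB mice (adjusted p = 0.015, and 0.15 in the covariate fit).

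Ccl6, a chemokine of myeloid cells in the mouse, was at 15.2, 14.2, 10.9, 13.0 and 14.6 CPM in FVB mice of 12 months and at 21.6, 12.7, 17.6, 14.6 and 12.7 CPM in those of 14 months. Levels in Tgαq*44 mice were at 66.8, 77.7, 39.7, 76.2 and 31.1 CPM at 12 months and at 18.0, 16.4, 26.9, 17.4 and 32.8 CPM at 14 months. A Tgαq*44 mouse of 14 months, mouse 5, reached the lowest mouse of 12 months, and the other 4 were below all of them. The difference was -1.61 ± 0.30 (SE, adjusted p = 0.0028, and 0.013 in the covariate fit). Ccl9, its neighbour on chromosome 11, was at a mean of 4.62 and 5.65 CPM in FVB mice and of 22.6 and 9.79 CPM in Tgαq*44 mice of 12 and 14 months, with a difference of -1.49 ± 0.36 (SE, adjusted p = 0.023, and -1.53 with an adjusted p of 0.094 in the covariate fit). Its call was lost without FVB 12-month mouse 3 or FVB 14-month mouse 1, with adjusted p up to 0.055. These were the 2 called members of 25 cytokine and chemokine genes, with a list median of -0.51. Of all genes tested, 0.410% were called negative. The summed level of 12 macrophage markers was 533 to 685 CPM in Tgαq*44 mice of 12 months and 507 to 635 CPM in those of 14 months, and 343 to 368 and 393 to 459 CPM in FVB mice. None of the 12 passed for the difference, and their part in the chemokine result was not tested.

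Of matrix and growth factor genes, Ctgf, the connective tissue growth factor, was at 40.2, 88.2, 65.6, 124 and 72.5 CPM in FVB mice of 12 months and at 125, 204, 166, 235 and 294 CPM in those of 14 months. It was at 1032, 1009, 991, 868 and 1056 CPM in Tgαq*44 mice of 12 months and at 797, 703, 866, 843 and 926 CPM in those of 14 months. Tgαq*44 mice were above FVB mice at both ages, and the 2 FVB groups did not overlap. The difference was -1.65 ± 0.31 (SE, adjusted p = 0.0028, and 0.039 in the covariate fit), and it was FVB mice in which Ctgf rose, by 1.39 (adjusted p = 2.2e-05, and 0.058 in the covariate fit), against -0.26 in Tgαq*44 mice (adjusted p = 0.57).

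Lox, the lysyl oxidase that crosslinks collagen and elastin, was at 0.816 to 2.36 CPM in FVB mice of 12 months and at 0.920 to 1.66 CPM in those of 14 months. In Tgαq*44 mice it was at 10.5, 10.5, 15.2, 7.54 and 5.20 CPM at 12 months and at 2.96, 1.82, 3.02, 4.12 and 2.52 CPM at 14 months. The 2 Tgαq*44 groups did not overlap. The difference was -1.70 ± 0.41 (SE, adjusted p = 0.023, and 0.011 in the covariate fit), with a fall by 1.76 in Tgαq*44 mice (adjusted p = 2e-05). The call was lost without FVB 12-month mouse 3, FVB 14-month mouse 2 or Tgαq*44 12-month mouse 3 (adjusted p up to 0.059), and on the 20 libraries alone (adjusted p = 0.072).

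Timp1, an inhibitor of matrix metalloproteinases, was at 2.02 to 4.81 CPM in FVB mice of 12 months and at 3.06 to 5.15 CPM in those of 14 months. Levels in Tgαq*44 mice were at 34.9, 51.2, 26.1, 38.0 and 54.0 CPM at 12 months and at 17.7, 22.5, 16.3, 14.9 and 11.3 CPM at 14 months, without overlap. The difference was -1.61 ± 0.41 (SE, adjusted p = 0.033, and -1.33 with an adjusted p of 0.25 in the covariate fit), with a fall by 1.30 in Tgαq*44 mice (adjusted p = 0.0017). The call for the difference was lost in 12 of the 20 fits that left out a mouse (adjusted p up to 0.086).

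Ctgf, Lox and Timp1 were the 3 called members of 30 genes for matrix crosslinking, proteases and the TGF-beta axis. All were negative, as were 0.410% of all genes tested. Of 40 collagen and other interstitial matrix genes none passed for the difference, with 34 negative and a median of -0.55. The change in Tgαq*44 mice alone passed for 13 of the 40, all downward, with a median of -0.53. Of all genes tested, 1.86% fell in Tgαq*44 mice. The median of the 40 was 0.01 in FVB mice, in which 2 rose and 2 fell, against 3.07% and 5.94% of all genes. Without FVB 12-month mouse 5 the difference passed for 6 of the 40, all negative, and the 13 fell to 5 without Tgαq*44 14-month mouse 5 and were 17 in the covariate fit. Over all genes tested, negative differences went from 62 to 206 without FVB 12-month mouse 5. The count for the Tgαq*44 change went from 493 to 186 without Tgαq*44 14-month mouse 5. Among the 13 were elastin, Eln (fell by 1.30, adjusted p = 1.2e-05), and Ltbp2, a latent TGF-beta binding protein (fell by 1.21, adjusted p = 0.0008). Fibrillin 1, Fbn1 (fell by 1.08, adjusted p = 2.5e-05), and periostin, Postn (fell by 0.86, adjusted p = 0.011), were also among them. The strain differences in change of Eln, Ltbp2 and Fbn1 were -0.60, -1.29 and -0.73 (adjusted p = 0.28, 0.057 and 0.08). Postn was at a mean of 59.2 and 50.7 CPM in FVB mice and of 546 and 300 CPM in Tgαq*44 mice of 12 and 14 months, and its difference in change was -0.64 ± 0.29 (SE, adjusted p = 0.29). Bgn and Dcn, the 2 matrix genes of highest level, were at differences of -0.44 and 0.14 (adjusted p = 0.52 and 0.77). The summed level of 7 activated fibroblast markers was 1029 to 1304 CPM in Tgαq*44 mice of 12 months and 795 to 984 CPM in those of 14 months, with 232 to 479 and 282 to 398 CPM in FVB mice, and none of the 7 passed for the difference.

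Frzb, a secreted antagonist of Wnt ligands, was at 10.7, 10.2, 8.57, 11.9 and 23.4 CPM in FVB mice of 12 months and at 25.3, 21.7, 22.9, 22.1 and 20.1 CPM in those of 14 months, with FVB 12-month mouse 5 at the level of the older mice. It was at 58.1 to 84.2 CPM in Tgαq*44 mice of 12 months and at 49.9 to 62.0 CPM in those of 14 months. The difference was -1.08 ± 0.24 (SE, adjusted p = 0.013, and -0.85 with an adjusted p of 0.16 in the covariate fit).

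The remaining named negative genes were low to moderate in level. Lrrc25, a leucine-rich repeat membrane protein of myeloid cells, had a difference of -1.42 ± 0.31 (SE, adjusted p = 0.01). Nfkbie, an inhibitor of NF-kappaB, had -1.17 ± 0.26 (adjusted p = 0.012), and Cdc25b, a phosphatase that activates cyclin-dependent kinases, had -1.13 ± 0.25 (adjusted p = 0.013). Rnf149, a ubiquitin ligase, had -1.11 ± 0.23 (adjusted p = 0.0059) and passed in the covariate fit (adjusted p = 0.034), which the other 3 did not (-1.28, -0.93 and -0.97, adjusted p = 0.11, 0.18 and 0.16). In all 4 the mean was higher in Tgαq*44 than in FVB mice at 12 months and the difference between strains at 14 months did not pass, at log2 values of -0.36, -0.40, 0.02 and -0.20. Ier3, an immediate early gene, was the called member of 24 such genes, with a difference of -1.19 ± 0.30 (SE, adjusted p = 0.032, and -0.88 with an adjusted p of 0.31 in the covariate fit) and a list median of -0.63. Its call was lost in 8 of the 20 fits that left out a mouse (adjusted p up to 0.11). Negative calls made up 0.410% of all genes tested. Amotl2, a junction protein and target of YAP named after its values were seen, had -0.63 ± 0.15 (SE, adjusted p = 0.018, -0.66 with 0.065 in the covariate fit and 0.051 without FVB 14-month mouse 2).

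No tested gene of the antigen presentation and interferon lists passed for the strain difference. Of 20 genes for MHC class I and II antigen presentation (the MHC list), 11 rose in FVB mice (3.07% of all genes tested) and none passed in Tgαq*44 mice, with medians of 0.90 and 0.17. All 20 differences were negative, with a median of -0.79. B2m, the MHC class I light chain, was at 817, 563, 658, 378 and 698 CPM in FVB mice of 12 months and at 758, 1104, 1189, 2001 and 1644 CPM in those of 14 months, against 360 to 841 CPM and 568 to 758 CPM in Tgαq*44 mice. FVB 14-month mouse 1 lay within the range of the 12-month mice and the other 4 above it. Its difference was -0.75 ± 0.33 (SE, adjusted p = 0.28), and that of H2-K1 was -0.94 ± 0.39 (SE, adjusted p = 0.23). Of 44 interferon response genes, 12 rose in FVB mice, none passed in Tgαq*44 mice and 42 differences were negative, with a median of -0.67. Irgm2, an interferon-induced GTPase, was at 15.4 to 80.7 CPM in FVB mice of 12 months and at 31.2, 113, 211, 166 and 186 CPM in those of 14 months, against 10.6 to 17.4 CPM in Tgαq*44 mice of both ages. Its difference was -1.72 ± 0.72 (SE, adjusted p = 0.23), and that of Lgals3bp was -0.88 ± 0.29 (SE, adjusted p = 0.11). The summed level of 7 T cell markers was 4.12 to 6.97 CPM in FVB mice of 12 months and 5.61 to 19.1 CPM in those of 14 months, of which 5 markers rose, against 3.96 to 6.40 CPM and 4.30 to 6.47 CPM in Tgαq*44 mice. Their differences were all negative, with -1.24 ± 0.52 for Lck (SE, adjusted p = 0.23) and -0.56 ± 0.44 for Cd3e (SE, adjusted p = 0.64). The 3 NK cell markers tested rose in FVB mice, and Nkg7 had a difference of -0.96 ± 0.63 (SE, adjusted p = 0.52). The part of these lymphocyte markers in the antigen presentation result was not tested. In the covariate fit none of the MHC, interferon, T cell or NK cell genes passed in FVB mice, where only 1 of all genes tested passed upward. The FVB medians of these lists were 0.93, 0.62, 0.89 and 1.73 in that fit, against 0.90, 0.60, 1.09 and 1.92 in the main fit. Without FVB 14-month mouse 5 the 11 MHC, 12 interferon, 5 T cell and 3 NK cell genes were 6, 7, 3 and 1. An effect that passed in FVB mice and not in Tgαq*44 mice was thus not shown to differ between the strains.

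**Figure D5:**
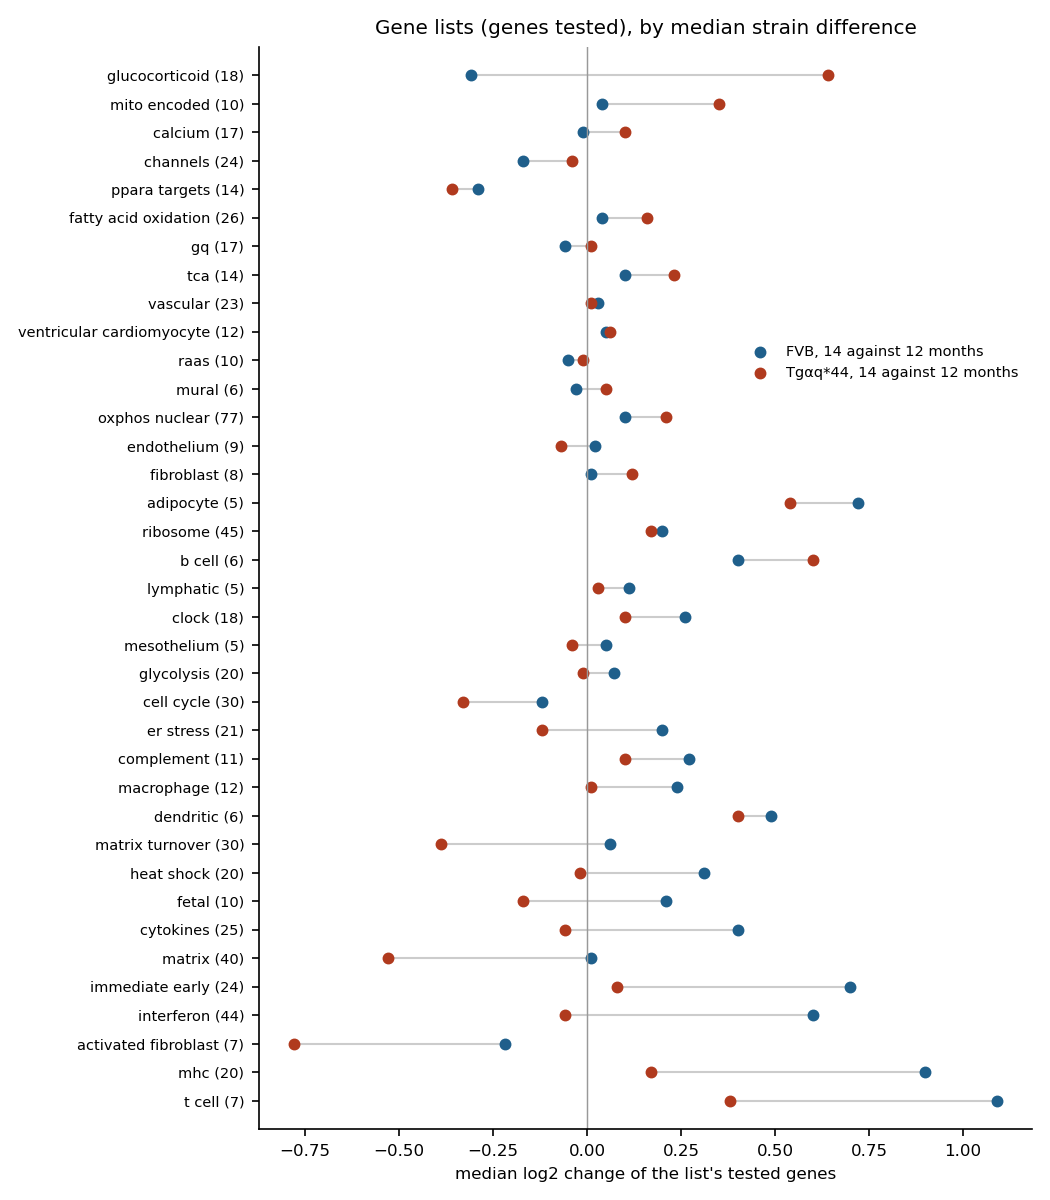
Median log2 change from 12 to 14 months of each gene list with at least 5 tested genes (number tested in parentheses), in FVB and in Tgαq*44 mice, ordered by the median strain difference. The glucocorticoid list lies at the top with 0.64 in Tgαq*44 mice and -0.31 in FVB mice, and the MHC list is near the bottom with 0.17 and 0.90.

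Foetal and hypertrophic cardiac genes did not pass for the difference in any of 10 tested, with a median of -0.48. Acta1, skeletal alpha-actin, was at 845, 1048, 534, 1073 and 2826 CPM in FVB mice of 12 months and at 1664, 2290, 1445, 1628 and 4232 CPM in those of 14 months, against 2385 to 4815 CPM and 1041 to 2483 CPM in Tgαq*44 mice. Its difference was -1.64 ± 0.48 (SE, adjusted p = 0.07). Without FVB 12-month mouse 5, the highest of its group, the difference was -2.17 (adjusted p = 0.0032), and in the covariate fit it was -0.94 (adjusted p = 0.51). Ankrd1, a stretch-responsive ankyrin repeat protein of the sarcomere, had -0.40 ± 0.23 (SE, adjusted p = 0.44). None of the 12 ventricular cardiomyocyte markers, 8 fibroblast markers or 9 endothelial markers passed, with median differences of 0.13, 0.08 and 0.08, and Myh6 had 0.46 ± 0.21 (SE, adjusted p = 0.29). Of 4 erythroid markers none passed, with Hbb-bs, a beta-globin, at -1.43 ± 0.63 (SE, adjusted p = 0.27) and at 2210 CPM in FVB 14-month mouse 1 against 385 to 570 CPM in the other 4.

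Strain differences in change over other ages share mice with this one and are given side by side. From 10 to 14 months, with the same 10 mice of 14 months, 320 genes (2.12%) were positive and 118 (0.780%) negative. From 8 to 12 months, with the same 10 mice of 12 months, 260 (1.72%) were positive and 239 (1.58%) negative. From 10 to 14 months the difference of Ces1d was 1.19 (adjusted p = 0.013), that of Ddit4 was 2.41 (adjusted p = 0.0043), that of Myh7b was 1.03 (adjusted p = 0.0045) and that of Timp1 was -1.73 (adjusted p = 0.0099). Hs3st5, Lrtm1, Ctgf and Ccl6 did not pass over those ages, with 0.53, 0.11, -0.01 and -0.16 (adjusted p = 0.39, 0.91, 1 and 0.89). Hs3st5 was at a mean of 3.50 and 2.13 CPM in FVB and Tgαq*44 mice of 10 months. The Tgαq*44 group of 12 months, at a mean of 0.828 CPM, was thus below those of 10 and 14 months.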

How the data were processed

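Library preparation was by Sense mRNA-Seq kit after poly(A) selection, and the authors made the deposited counts by trimming with Cutadapt, quality control with FastQC, alignment with STAR to GRCm38.p6 and counting over exons with HTSeq, per the labels and the methods. Versions and the strand setting were not given in those sources, so overlapping and antisense genes may share counts. The other deposited tables hold the authors' own comparisons and were not used. Groups and mouse numbers came from titles. The filter kept a gene whose CPM exceeded 0.5 in over 3 mice of any group, and 1 model over 50 libraries and 10 groups was fitted by edgeR 4.0.16 (trimmed mean of M-values, quasi-likelihood test, contrasts of groups), where the study's methods used limma-voom. Benjamini-Hochberg adjustment ran over all 15129 genes, a gene was called under 0.05, and a DEG also exceeded 1 on the log2 scale. SE is the log2 value divided by the root of F.

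The model was tested on simulated data. Alternatives used limma 3.58.1, DESeq2 1.42.0, other scalings and filters, the 4 groups alone, a replicate block, protein-coding genes and each mouse left out. Gene lengths came from GENCODE M21, in which 54495 of 54532 IDs were found. The gene lists and the comparison were chosen with earlier results of these data known. Named genes were up to 12 per direction with the largest difference among DEGs called in each leave-one-out fit at a mean of at least 1 CPM in a group (12 positive and 8 negative qualified, without predicted genes), up to 4 called genes of each list or its most abundant genes, and Gnaq. Mice are separate animals, and depth set counting error only.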

Additional observations from a re-analysis of the deposited data

Results flagged for a closer look

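The change from 12 to 14 months differed between strains by the test of the difference itself for 193 genes, and among the named genes the log2 differences were as follows. Positive differences were 2.01 for Hs3st5, 1.66 for Ces1d, 1.35 for Lrtm1, 1.71 for Itgb6, 2.07 for Lrrc52, 2.60 for Kcna1, 2.91 for Nt5c1a, 1.60 for Hipk2, 1.42 for Myh7b, 1.44 for Lrrc15, 1.58 for Kcnj15 and 1.77 for Carmn. Positive differences of list members and of genes named after their values were seen were 0.67 for Kcnj5, 0.70 for Cacna1c, 1.38 for Ppara, 2.33 for Ddit4, 0.70 for Yipf7, 0.67 for Rpl3l, 0.92 for Asb18, 0.92 for Armc2, 1.39 for Mylk4, 0.73 for Lpin1 and 0.97 for Fzd4. Negative differences were -2.32 for Cxcr6, -1.65 for Ctgf, -1.61 for Ccl6, -1.42 for Lrrc25, -1.17 for Nfkbie, -1.13 for Cdc25b, -1.11 for Rnf149 and -1.08 for Frzb. Further negative differences, of list members and of genes named after their values were seen, were -1.70 for Lox, -1.61 for Timp1, -1.49 for Ccl9, -1.19 for Ier3, -1.38 for Sfrp2, -0.62 for Fzd1, -0.88 for Fzd7 and -0.63 for Amotl2. Fzd4, Sfrp2, Fzd1 and Fzd7 did not pass in the covariate fit. Their differences there were 0.73, -1.11, -0.62 and -1.02 (adjusted p = 0.19, 0.31, 0.19 and 0.052). The calls of Sfrp2, Fzd1 and Fzd7 were lost in 12, 11 and 10 of the 20 fits that left out a mouse.

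A library lay far from the other 4 of its group in 20 of 236 sets of 5 values examined by Dixon's test at its 95% critical value (8.47%, where chance gives about 5%). Of these, 7 were FVB 12-month mouse 5, with a coding-length slope of -0.037 and CPM values of 2.57 for Nt5c1a, 48.2 for Hipk2, 1.16 for Carmn, 23.4 for Frzb, 402 for Cacna1c and 2826 for Acta1. These are the values that brought that mouse nearer to FVB mice of 14 months. Tgαq*44 12-month mouse 4 was high for H2-K1 at 227 CPM, B2m at 841 CPM and Kcna1 at 0.826 CPM. The Ppara level was low at 11.4 CPM in Tgαq*44 12-month mouse 5 and at 7.17 CPM in Tgαq*44 14-month mouse 2. Single sets were Nfkbie at 4.48 CPM in FVB 12-month mouse 2, Ankrd1 at 804 CPM and Myh6 at 15957 CPM in FVB 12-month mouse 4, Hbb-bs at 2210 CPM in FVB 14-month mouse 1, Sfrp2 at 4.16 CPM in FVB 14-month mouse 5, Itgb6 at 1.88 CPM in Tgαq*44 12-month mouse 1, Myh7b at 21.1 CPM in Tgαq*44 12-month mouse 3 and Lrrc52 at 0.672 CPM in Tgαq*44 14-month mouse 3.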

How the results depend on the processing

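None of the 193 called genes that an alternative tested changed direction under it. The count of 193 (131 positive, 62 negative, 80 DEGs) was 341 (226 and 115) by DESeq2, 50 (32, 18 and 30 DEGs) in the 4 groups alone, 837 (516, 321 and 304) without both libraries that stood apart and 23 (14, 9 and 13) with the coding-length slope as a covariate. Leaving out a mouse gave 83 to 569 called genes, 65 to 363 positive, 18 to 206 negative and 45 to 210 DEGs. For the Tgαq*44 change the same range was 186 to 547 genes, 99 to 249 upward, 87 to 311 downward and 56 to 126 DEGs, and 177 fell in the 4 groups alone. For the FVB change it was 851 to 1911 genes, 215 to 723 upward, 634 to 1188 downward and 199 to 419 DEGs. The FVB change had 724 upward and 421 DEGs without both libraries, 179 DEGs among protein-coding genes, and 16 genes (1 upward, 15 downward) and 7 DEGs with the covariate. The cause was not tested. The other scalings, filters and limma-voom kept these counts within 1.5 times.

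With the mouse number as a replicate block the difference had 384 calls (228 positive, 156 negative, 123 DEGs) and the Tgαq*44 change 774 (345 upward, 429 downward). Mouse numbers pair nothing in the labels, but 11 of 20 libraries correlated best with libraries of their own number. The best was picked among 5 numbers, so some matches arise without any link, and the count to be had by chance was not computed. Mean correlations of same-numbered libraries lay between -0.02 and 0.16, against -0.04 to 0.00 for libraries of other numbers. The same-numbered mean was the higher in each pair of groups except Tgαq*44 mice of 12 and 14 months. What the mouse numbers share was not tested.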

Other observations

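Of 17 calcium handling genes, 3 rose and 1 fell in Tgαq*44 mice between 12 and 14 months, with a median of 0.10 (1.40% and 1.86% of all genes tested), and Cacna1c was called for the difference in change. Atp2a2, the calcium pump of the sarcoplasmic reticulum, rose by 0.35 on the log2 scale in Tgαq*44 mice (adjusted p = 0.012). Pln, the pump's inhibitor phospholamban, rose by 0.57 (adjusted p = 0.025). Hrc, a calcium-binding protein of the same compartment, rose by 0.67 (adjusted p = 0.025), while Slc8a1, the sodium-calcium exchanger, fell by 0.63 (adjusted p = 0.04). None of them passed for the strain difference, with 0.40, 0.26, 0.48 and 0.34 in the order named (adjusted p = 0.072, 0.66, 0.38 and 0.6). Further genes called for the difference that also passed in the covariate fit, named after their values were seen, were the cadherin Cdh23 with 1.22 (adjusted p = 0.039 in that fit), the phospholipase gene Pla2g4e with 1.25 (adjusted p = 0.043), the reticulon gene Rtn4 with -0.72 (adjusted p = 0.017) and Ust, a uronyl 2-sulfotransferase gene, with -0.69 (adjusted p = 0.043). Without both libraries that stood apart, Rtn4 and Ust did not pass (adjusted p = 0.051 and 0.056).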
